A study of Mus musculus with 24 samples.

Results

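RNA levels of 10 cytosolic heat shock proteins and co-chaperones were examined in the left ventricle of mice with angiotensin II (ANG II)-induced hypertensive left ventricular hypertrophy (LVH). The genes were taken by symbol: Hspa1a, Hspa1b, Hsp90aa1, Hspb1, Hspb6, Hspb7, Cryab, Hsph1, Dnajb1 and Bag3. All 10 were present among the 14912 genes of the table. Each group, hypertensive-LVH and control, held 12 samples, all from the left ventricle of male wild-type C57BL/6J mice, with no transgene or deletion in either group. The dose of ANG II in the first was 1500 ng/kg/min over 7 days, the second received saline, and both were infused from osmotic mini-pumps under the skin; hearts were flushed with saline before the ventricle was taken. Ages were not given in the sources used here, and not all samples of the study were analysed here.

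Cytosolic heat shock proteins bind proteins that are unfolded, newly made or under mechanical load, and hold, refold or route them to degradation. HSP70 proteins work in cycles of ATP hydrolysis that J-domain proteins start and nucleotide exchange factors end, HSP90 completes the folding of kinases and receptors, and small heat shock proteins hold unfolding clients without ATP. Heart muscle contains large amounts of small heat shock proteins, which sit on the Z-disc, titin and desmin filaments. Under stress the transcription factor HSF1 binds heat shock elements, inverted repeats of the unit GAA, in the promoters of many of these genes.

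Promoter sequences are shown for the HSP70 pair, which are near-identical copies, for the genes with the most heat shock element letters, and for Hspb7, the member with the smallest p-value. Of the 10 genes, 8 had a window in the RefSeq promoter sequences (build GRCm38.p6; 250 bases before to 50 after each start); Cryab and Hsp90aa1 had none. The motifs searched were GAANNTTC and TTCNNGAA, which read the same on both strands, and a longer motif of 3 units in a row with NN between them, GAA, TTC and GAA or its reverse complement TTC, GAA and TTC, which contains both short motifs. The 200 bases before the start are given below, 5′ to 3′ on the gene's own strand, with matches to a short motif in capitals.
Hspa1a, chr17:34972157-34972356, minus strand: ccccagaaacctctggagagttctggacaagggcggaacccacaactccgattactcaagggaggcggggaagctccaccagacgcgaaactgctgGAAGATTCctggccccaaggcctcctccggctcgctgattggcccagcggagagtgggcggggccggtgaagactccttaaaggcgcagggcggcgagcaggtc
Hspa1b, chr17:34959239-34959438, minus strand: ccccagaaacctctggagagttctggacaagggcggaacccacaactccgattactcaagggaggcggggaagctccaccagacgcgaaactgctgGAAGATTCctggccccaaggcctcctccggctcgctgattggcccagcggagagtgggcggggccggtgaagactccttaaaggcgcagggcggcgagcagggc
Hspb1, chr5:135887719-135887918, plus strand: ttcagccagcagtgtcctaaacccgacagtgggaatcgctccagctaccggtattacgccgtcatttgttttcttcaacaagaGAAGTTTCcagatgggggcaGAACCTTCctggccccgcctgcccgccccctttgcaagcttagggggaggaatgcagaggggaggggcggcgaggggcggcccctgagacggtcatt
Hsph1, chr5:149636337-149636536, minus strand: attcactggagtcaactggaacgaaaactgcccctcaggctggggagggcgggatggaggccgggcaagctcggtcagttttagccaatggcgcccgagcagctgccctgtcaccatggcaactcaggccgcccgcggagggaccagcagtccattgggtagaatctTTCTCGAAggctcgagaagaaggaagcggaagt
Hspb7, chr4:141420579-141420778, plus strand: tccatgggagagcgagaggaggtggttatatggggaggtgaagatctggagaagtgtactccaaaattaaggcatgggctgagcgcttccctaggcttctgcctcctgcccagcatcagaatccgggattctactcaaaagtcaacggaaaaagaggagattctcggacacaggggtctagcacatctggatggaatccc

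The 200 bases before the starts of Hspa1a and Hspa1b differed at 1 base, and both held the short motif at -104. Positions are those of the first base of a match, with the start base as 1 and no position 0. Hspb1 held it at -117 and -97. Hsph1 held it at -33, and beyond the printed stretch it held the longer motif at position 37, the one member to do so. Bag3 matched at position 43 and Hspb6 at -120 of its second start. No letters of this kind were found in the windows of Hspb7, Dnajb1 or the first start of Hspb6. In all, 6 of 8 members, or 7 of 11 windows, held a short motif, against 15.1% of all 32851 windows, and the longer motif was found in 0.603% of all windows. Windows of a gene with 2 starts overlap or lie close together and the Hspa1a and Hspa1b windows are copies, so these are not independent matches. Neither a match nor its absence says whether a factor was bound.

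The table gives FPKM, sequenced fragments scaled to transcript length and library size, but the values are not plain FPKM. Exact ties between samples showed 4 sets, samples 1 to 3, 4 to 6, 7 to 9 and 10 to 12 of each group, within which genes had been shifted and scaled; a scale in every set was recovered for 11630 genes, and 278 genes held whole hundredths throughout. For all 10 members the scale was recovered from the spacing of the values, in steps of 0.01 FPKM, and the group differences within each set before that adjustment are given beside the deposited ones. Levels across sets therefore carry the adjustment, and read depth is unknown, so neither counting intervals nor floors can be given. Samples of the hypertensive-LVH group summed to between 460715 and 515185, and control samples to between 482319 and 567727.

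Tissue markers are given here because the RNA is from whole ventricle, where fewer cells of a type and less RNA per cell cannot be told apart. All 12 cardiomyocyte markers, such as Myh6, Tnnt2 and Ttn, were measured above 0, and their summed level ran from 39388 to 56958 FPKM in hypertensive-LVH against 51416 to 65624 FPKM in control samples, with 1 marker higher and 6 lower. Fibroblast markers were higher for 5 and lower for 1 of 10 (sums 1247 to 3594 against 733 to 1775 FPKM), macrophage and monocyte markers were higher for 10 of 10 (344 to 1075 against 268 to 615 FPKM), and red blood cell markers for 5 of 6 (779 to 6445 against 92.3 to 2949 FPKM). Of the immediate early genes, which respond to handling within minutes, 4 of 18 were higher and 0 lower (456 to 846 against 320 to 653 FPKM; 14 did not pass). Endothelial markers gave 2 higher and 1 lower of 10, smooth muscle and pericyte markers 3 and 2 of 10, lymphocyte markers 1 and 1 of 8, atrial markers 1 and 0 of 7, skeletal muscle markers 2 and 3 of 7 and adipocyte markers 0 and 0 of 6. The atrial marker that was higher was Nppa, which did not pass the exact test before the adjustment described below (adjusted p = 0.319). Nppa encodes atrial natriuretic peptide, which the paper lists among genes activated in cardiomyocytes during hypertrophy. Its level is therefore no measure of atrial tissue alone. The atrial sums ran from 364 to 6496 FPKM in hypertensive-LVH against 26.0 to 8370 FPKM in control samples. Of the skeletal muscle markers, Acta1 and Tnnt3 were higher, and Ckm, Mylpf and Tnni2 were lower. The part of these shifts in the values below was not tested.

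Of the 10 genes, 3 were upregulated in the hypertensive-LVH group (Hspb7, Hsp90aa1 and Hspa1a), 0 were downregulated, and 7 did not pass the test. Hspa1a, a stress-inducible HSP70, had a mean 2.09 times that of the control group, Hspb7, a small heat shock protein of heart and skeletal muscle, 1.39 times, and Hsp90aa1, the inducible HSP90, 1.28 times. The test was limma on log2(FPKM + 1), two-sided, with Benjamini-Hochberg adjustment over all 14026 genes with a mean of at least 0.1 FPKM and a threshold of 0.05. That threshold was passed by 33.5% of the tested genes, 20.9% higher and 12.6% lower, so 3 of 10 is close to the share of all genes. The median log2 fold change was 0.24 over the 10 genes and 0.05 over all tested genes. Only Hspa1a was a differentially expressed gene (DEG), which also needs an absolute log2 fold change over 0.5; DEGs were 5.92% of the tested genes, with 4.52% higher. A permutation test of each gene over all samples (100000 resamples, two-sided, unadjusted) gave p = 1e-05 for Hspb7, the smallest it can give, 5e-05 for Hsp90aa1, 0.00023 for Hspa1a, 0.0357 for Hspa1b and 0.0486 for Bag3, and 0.0548 to 0.639 for the other 5 genes. The number past the threshold was 5 in place of 3 without samples 4 to 6 (where 20.0% of all tested genes passed), without samples 10 to 12 (25.3%), without control replicate 6 (29.9%), and after quantile normalization (34.6%). Hspb7, Hsp90aa1 and Hspa1a passed in each of these, and the added genes were Hspb1 and Bag3, then Hspa1b and Dnajb1, then Hspb1 and Bag3 again, then Hspb1 and Hspb6.

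**Figure D1:**
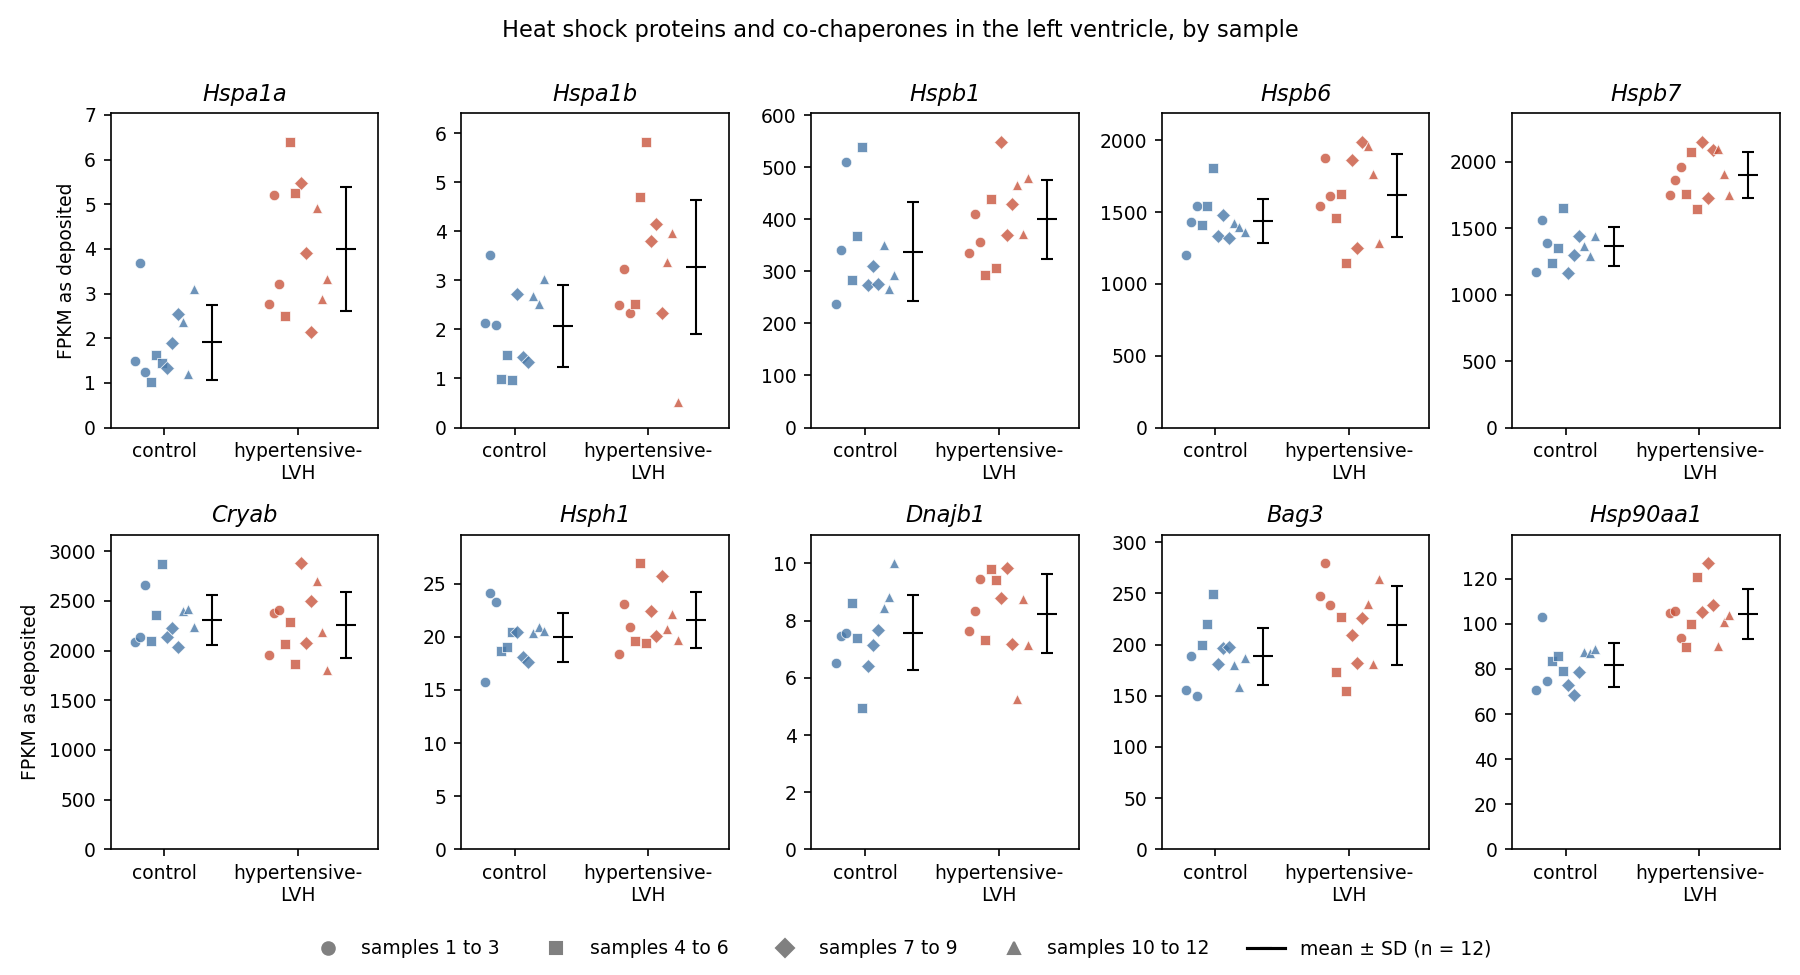
Deposited FPKM of the 10 genes (vertical axes from 0, 1 panel a gene) in the control group (blue) and the hypertensive-LVH group (red), 1 point a sample, with the marker shape giving the set of samples and the black bar the mean ± SD (n = 12). Hspb7 overlaps least: 11 of 12 hypertensive-LVH samples lie above the highest control sample, while the groups have close medians for Cryab.

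The inducible HSP70 genes Hspa1a and Hspa1b were at low levels. Hspa1a ran from 1.01 to 3.68 FPKM in the control group (median 1.55) and from 2.14 to 6.40 FPKM in the hypertensive-LVH group (median 3.61). All 12 hypertensive-LVH samples lay above the control median and 6 above the highest control sample. Its mean was 4.00 ± 1.39 against 1.91 ± 0.84 FPKM (SD, n = 12), with a log2 fold change of 0.78 ± 0.15 (SE) and a limma adjusted p of 0.000474. On the log2(FPKM + 1) scale a fold change of such low values is understated. The difference was in the same direction in every set, and before the adjustment it was 1.59, 4.05, 1.81 and 1.51 FPKM in samples 1 to 3, 4 to 6, 7 to 9 and 10 to 12.

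Hspa1b, the second inducible HSP70, ran from 0.97 to 3.51 FPKM in the control group (median 2.11) and from 0.52 to 5.83 FPKM in the hypertensive-LVH group (median 3.30). The groups overlapped, with 5 of 12 hypertensive-LVH samples above the highest control sample and 1 sample, replicate 12, below the lowest. The mean was 3.27 ± 1.37 against 2.08 ± 0.83 FPKM (SD, n = 12), and the log2 fold change of 0.44 ± 0.19 (SE) did not pass (limma adjusted p = 0.0681). It passed without hypertensive-LVH replicate 12 (0.57, limma adjusted p = 0.00503) and without control replicate 2 (0.50, limma adjusted p = 0.0394). Before the adjustment its difference was 3.75 FPKM in samples 4 to 6 and 1.25 FPKM in samples 7 to 9, but 0.117 and 0.00333 FPKM in samples 1 to 3 and 10 to 12.

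Both copies lie on chromosome 17, minus strand (GRCm38, GENCODE vM21), Hspa1a at 34969190 to 34972156 and Hspa1b at 34956436 to 34959238. Of the 150-base stretches of the Hspa1a transcript, 38.1% are also found in the Hspa1b transcript, and 40.5% the other way round, so the split of reads between the copies is uncertain. Hspa1a also overlaps Gm20481 on the other strand, and whether counting used strand was not given in the sources used here. Their summed level was 7.27 ± 2.49 FPKM in the hypertensive-LVH group and 3.99 ± 1.48 FPKM in the control group (SD, n = 12). The sum passed the test, with a log2 fold change of 0.72 ± 0.16 (SE) and a limma adjusted p of 0.00179. The copies differ in transcript length and in their scaling by set, so the sum too depends on how the reads were split.

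Hsp90aa1 (chromosome 12, 110690605 to 110702728, minus strand), the stress-inducible form of HSP90, ran from 68.5 to 103 FPKM in the control group (median 81.3) and from 89.7 to 127 FPKM in the hypertensive-LVH group (median 104). In 11 of 12 control samples the level was below the lowest hypertensive-LVH sample. Of the 12 hypertensive-LVH samples, 7 lay above the highest control sample. The share of all genes with such counts was not taken. The mean was 104 ± 11.1 against 81.7 ± 9.67 FPKM (SD, n = 12), a log2 fold change of 0.35 ± 0.06 (SE; limma adjusted p = 0.000198). Before the adjustment the difference was 18.4, 17.3, 26.7 and 9.68 FPKM in the 4 sets, in the order given for Hspa1a. The lowest of these, in samples 10 to 12, was still an increase.

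Among the small heat shock proteins, Hspb7 (chromosome 4, 141420779 to 141425311, plus strand) was upregulated. It ran from 1164 to 1651 FPKM in the control group (median 1357) and from 1645 to 2152 FPKM in the hypertensive-LVH group (median 1886). The groups were almost apart: 11 of 12 hypertensive-LVH samples lay above the highest control sample. Complete separation in this direction, which Hspb7 did not reach, was seen in 0.271% of tested genes. The share of genes with 11 of 12 samples above was not counted. Its mean was 1898 ± 174 against 1363 ± 147 FPKM (SD, n = 12), and the log2 fold change was 0.48 ± 0.06 (SE; limma adjusted p = 7.57e-06), just under the DEG threshold. Hspb7 met the DEG threshold without samples 4 to 6 (0.51), without control replicate 6 (0.51) and after quantile normalization (0.57). The difference before the adjustment was 489, 395, 716 and 538 FPKM in the 4 sets.

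The other small heat shock proteins of the 10 did not pass the test. Hspb1 (HSP27; chromosome 5, 135887919 to 135889563, plus strand), which caps and stabilizes actin filaments, ran from 238 to 538 FPKM in the control group (median 302) and from 292 to 549 FPKM in the hypertensive-LVH group (median 390). In 11 of 12 hypertensive-LVH samples it lay above the control median, but control replicates 3 and 6 were as high as the upper hypertensive-LVH samples. The log2 fold change was 0.27 ± 0.12 (SE; limma adjusted p = 0.0977), and it was 0.33 without control replicate 3 (limma adjusted p = 0.0365) and 0.33 without control replicate 6 (limma adjusted p = 0.0292). Before the adjustment its difference was 140 and 120 FPKM in samples 7 to 9 and 10 to 12, 1.06 FPKM in samples 1 to 3, and -64.5 FPKM in samples 4 to 6.

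Hspb6 (HSP20; chromosome 7, 30552178 to 30555443, plus strand), a target of protein kinase A in muscle, ran from 1202 to 1809 FPKM in the control group (median 1416) and from 1148 to 1990 FPKM in the hypertensive-LVH group (median 1620). The hypertensive-LVH samples were spread on both sides of the control range, with 4 above it. The log2 fold change was 0.15 ± 0.09 (SE; limma adjusted p = 0.174). Its gene overlaps Proser3 and Lin37 on the other strand and the microRNA gene Gm38670. Before the adjustment the difference was 306, 350 and 280 FPKM in samples 1 to 3, 7 to 9 and 10 to 12, and -245 FPKM in samples 4 to 6.

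Cryab (alpha-B crystallin; chromosome 9, 50751325 to 50756636, plus strand), which binds desmin and titin, had the highest mean of the 10 genes, and 99.9% of the genes of the table lay below it. It ran from 2036 to 2870 FPKM in the control group (median 2231) and from 1809 to 2876 FPKM in the hypertensive-LVH group (median 2241). The medians were close, with 6 hypertensive-LVH samples on each side of the control median, but 3 hypertensive-LVH samples lay below the lowest control sample and 1 above the highest. The log2 fold change was -0.04 ± 0.08 (SE; limma adjusted p = 0.748). It was 0.03 without samples 4 to 6, where the difference before the adjustment was -467 FPKM, against -47.0, 346 and -119 FPKM in the other sets. Cryab overlaps Hspb2 on the other strand.

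The HSP70 co-chaperones Hsph1, Dnajb1 and Bag3 did not pass the test over all samples. Hsph1 (HSP110; chromosome 5, 149614287 to 149636376, minus strand), a nucleotide exchange factor, ran from 15.8 to 24.2 FPKM in the control group (median 20.4) and from 18.3 to 26.9 FPKM in the hypertensive-LVH group (median 20.8). The medians were close and the ranges overlapped. Its deposited log2 fold change was 0.11 ± 0.06 (SE; limma adjusted p = 0.195), but the direction depended on the adjustment: the mean difference was 1.63 FPKM as deposited and -0.20 ± 0.95 FPKM (SE) before the adjustment, where it was -0.27, 0.86, 0.07 and -1.47 FPKM in the 4 sets.

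Dnajb1 (HSP40; chromosome 8, 83608193 to 83612653, plus strand), the J-domain protein that hands clients to HSP70, ran from 4.95 to 10.0 FPKM in the control group (median 7.51) and from 5.27 to 9.83 FPKM in the hypertensive-LVH group (median 8.54). No hypertensive-LVH sample exceeded the highest control sample. The log2 fold change was 0.11 ± 0.09 (SE; limma adjusted p = 0.370). Before the adjustment its difference was 1.29, 1.89 and 1.20 FPKM in the first 3 sets and -2.95 FPKM in samples 10 to 12, and without those samples it passed (0.26, limma adjusted p = 0.0311).

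Bag3 (chromosome 7, 128523616 to 128546981, plus strand), which joins HSP70 to small heat shock proteins in the autophagy of damaged Z-disc proteins, ran from 150 to 249 FPKM in the control group (median 187) and from 155 to 279 FPKM in the hypertensive-LVH group (median 227). The groups overlapped, with 2 of 12 hypertensive-LVH samples above the highest control sample. Its log2 fold change of 0.20 ± 0.09 (SE) did not pass (limma adjusted p = 0.0900), but it was 0.25 without hypertensive-LVH replicate 6 (limma adjusted p = 0.0354) and 0.24 without control replicate 6 (limma adjusted p = 0.0432). By set, the deposited mean was 255 ± 21.2 against 165 ± 20.7 FPKM (SD, n = 3) in samples 1 to 3 and 185 ± 37.8 against 223 ± 25.1 FPKM (SD, n = 3) in samples 4 to 6. Bag3 was thus higher on average in hypertensive-LVH in the former and lower on average in the latter.

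The next question was whether the difference of a gene was the same in the 4 sets. A limma fit with an interaction of group and set gave an adjusted p under 0.05 for 7.49% of tested genes and for 1 of the 10, Bag3 (adjusted p = 0.0337). For the other 9 genes the adjusted p from this limma interaction ran from 0.125 for Hspa1b to 0.790 for Hspb7. Without samples 4 to 6 the limma interaction of Bag3 had an adjusted p of 0.761 (unadjusted p = 0.0376). In that fit 3 of all tested genes had an adjusted p under 0.05. The group difference of Bag3 over the remaining samples rose to a log2 fold change of 0.37 ± 0.08 (SE), with a limma adjusted p of 0.00508. Hspb1, Hspb6, Cryab and Bag3 had a negative mean difference in samples 4 to 6, and Hspa1a, Hspa1b and Dnajb1 their highest positive one. Hsph1 had its highest there only before the adjustment. Markers also differed by set: the median log2 difference of the fibroblast markers was 1.63 in samples 4 to 6 and between 0.14 and 0.18 in the other sets, that of the cardiomyocyte markers was -0.40 against -0.15 to -0.07, that of the atrial markers 3.97 against -0.59 to 0.27, that of the smooth muscle and pericyte markers 0.67 against -0.14 to -0.0027, and that of the immediate early genes 0.61 against 0.04 to 0.22. Macrophage and monocyte markers stood higher in samples 4 to 6 (1.35) and 7 to 9 (1.08) than in samples 1 to 3 (0.06) and 10 to 12 (0.11). All these marker values are from deposited FPKM with values below 0 raised to 0, and none is given before the adjustment. The largest among the fibroblast markers, for Col3a1, was 9.32 in samples 4 to 6, against 0.37 to 0.41 in the other sets. The part of the adjustment in these marker differences, and their part in the results by set, was not tested.

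**Figure D2:**
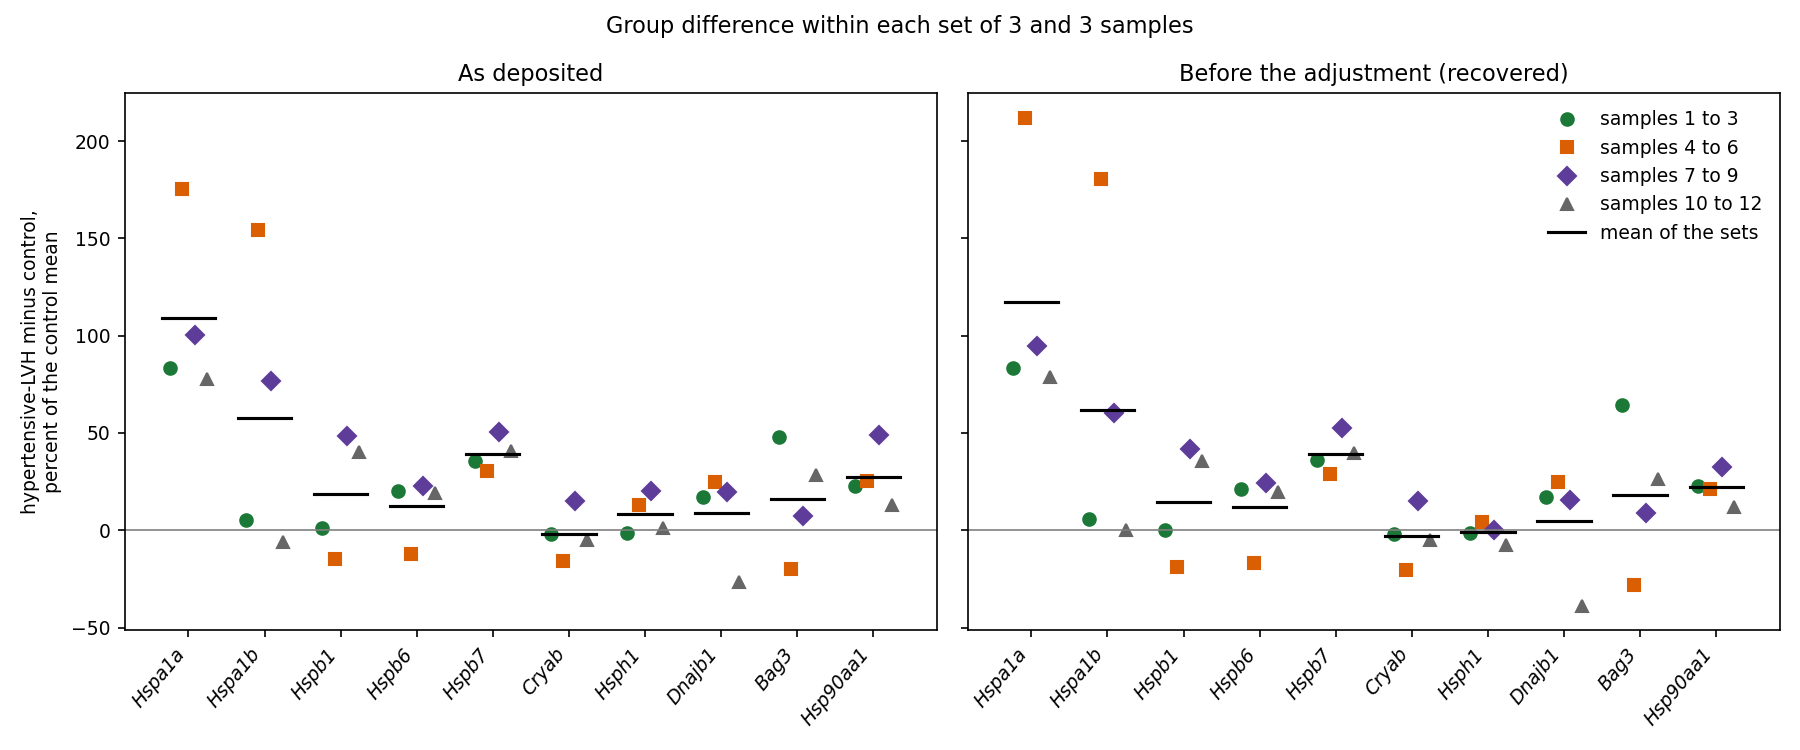
Hypertensive-LVH minus control in each set of 3 and 3 samples, as a percent of the mean of all 12 control samples (vertical axis), for the deposited values (left) and for the values before the adjustment by set (right); symbols give the set and black lines the mean of the sets. Hspa1a, Hspb7 and Hsp90aa1 lie above 0 in all 4 sets in both panels, and samples 4 to 6 lie lowest for Hspb1, Hspb6, Cryab and Bag3.

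To leave the adjustment out, the differences before it were tested with an exact permutation test that exchanged samples only within sets (160000 relabelings, two-sided), with Benjamini-Hochberg adjustment over the 11617 tested genes whose scale was recovered. The same 3 genes passed: Hspb7 with a mean difference of 535 ± 83.7 FPKM (SE; exact test, adjusted p = 0.00163), Hsp90aa1 with 18.0 ± 3.47 FPKM (SE; exact test, adjusted p = 0.00228) and Hspa1a with 2.24 ± 0.57 FPKM (SE; exact test, adjusted p = 0.00481). This test was passed by 30.8% of the genes, with 18.7% higher. Each SE of a difference before the adjustment, here and for Hsph1 above, was taken from the spread within group and set. Such an SE leaves out the spread of the difference between sets. Hspa1b did not pass (1.28 ± 0.42 FPKM, SE; exact test, adjusted p = 0.0567), nor did Bag3 (34.0 ± 11.9 FPKM, SE; exact test, adjusted p = 0.154). For the remaining 5 genes the exact adjusted p ran from 0.248 for Hspb6 to 0.886 for Hsph1. A higher level in hypertensive-LVH in all 4 sets before the adjustment was found for Hspa1a, Hspa1b, Hspb7 and Hsp90aa1, and for 21.6% of the genes. For Hspa1b the difference in samples 10 to 12 was only 0.00333 FPKM, less than the step of 0.01 FPKM. As deposited it was -0.124 FPKM in that set.

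Among samples treated alike, the small heat shock proteins varied together, and Hsph1 varied with them. With the mean of each group in each set removed, Pearson's r over the 24 samples was 0.86 for Hspb6 and Cryab, 0.74 for Hspb6 and Hspb7, 0.68 for Hspb1 and Cryab and 0.66 for Hspb1 and Hspb7. Hsph1 gave 0.66 with Hspb6, 0.62 with Hspb7, 0.60 with Hspb1 and 0.51 with Cryab. Bag3 ran from 0.23 with Cryab to 0.61 with Hspb7. Hspa1a and Hspa1b gave 0.43. Hsp90aa1 gave -0.54 with Cryab and -0.42 with Hspb6, but -0.14 with Hspb1 and -0.04 with Hspb7. These are descriptions: the points share the library, its scaling to a total and the adjustment by set, and no test was made.

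**Figure D3:**
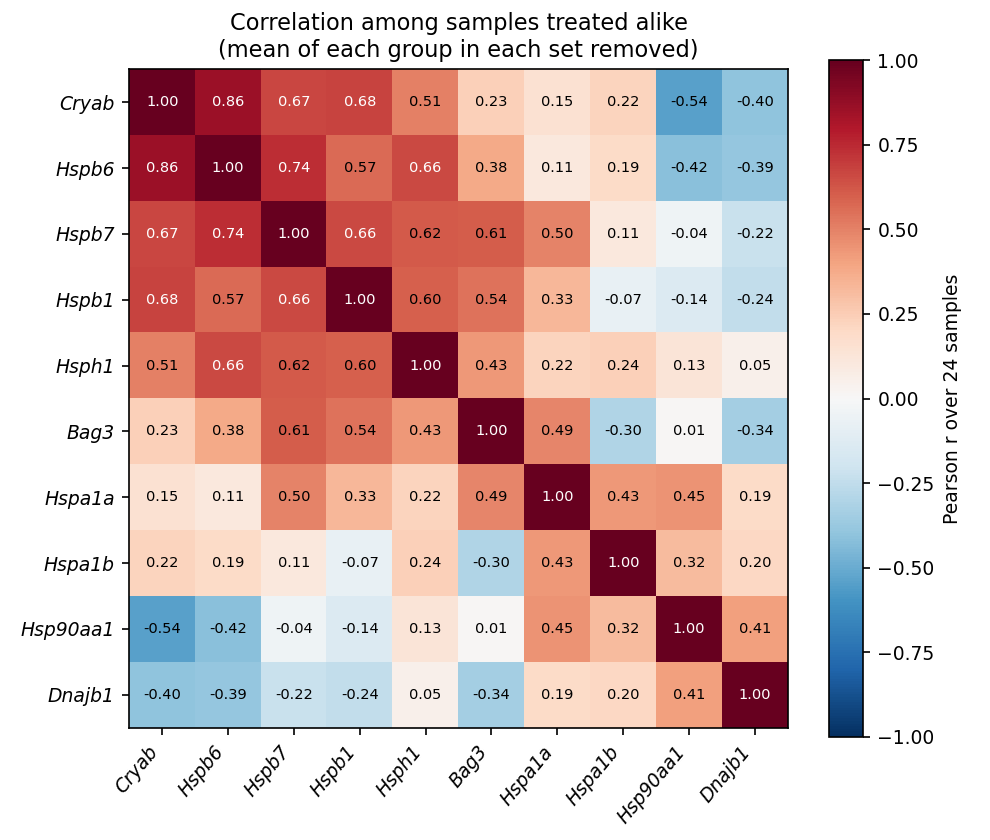
Pearson's r of log2(FPKM + 1) between the 10 genes over 24 samples (12 of each group), after the mean of each group in each set was removed; red is positive and blue negative. Cryab, Hspb6, Hspb7, Hspb1 and Hsph1 form a block of r between 0.51 and 0.86, and Hsp90aa1 and Dnajb1 are negative to Cryab and Hspb6.

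Outside the 10 genes, the 2 with the highest r to a gene are given for all but Hspa1a. Hspb7 was nearest to Flnc, the Z-disc protein filamin C (r = 0.89), and Acta1, the skeletal form of alpha-actin (0.87), and Hspb6 to Ldb3, a Z-disc protein (0.94), and Pcbp4 (0.93). Cryab was nearest to Klc2 (0.95) and Akr7a5 (0.94), Hspb1 to Hist2h2aa1 (0.85) and Ap1m1 (0.85), and Bag3 to Xirp1, an actin-binding protein of the intercalated disc (0.82), and Rrp12 (0.81). Hsph1 was nearest to Hsp90ab1, the constitutive HSP90 (0.80), and Ldb3 (0.79). The nearest to Hspa1b were Banp (0.88) and Ostc (0.85), to Dnajb1 Spib (0.81) and Hypk (0.80), and to Hsp90aa1 Mylk2 (0.89) and Scel (0.88). Of these Spib, Mylk2 and Scel had a mean under 0.3 FPKM.

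The other genes of the chaperone system were taken from 10 lists with 116 genes, of which 112 were tested. Of these, 32 were higher in hypertensive-LVH (28.6%, against 20.9% of all tested genes) and 22 lower (19.6%, against 12.6%), by limma with an adjusted p under 0.05. These counts depended on the scaling and the samples, as did those of all genes. Under median-ratio scaling 18 were higher (16.1%) and 26 lower (23.2%), with 2410 higher and 2230 lower of all 14026 tested genes. After quantile normalization 23 were higher (20.5%) and 29 lower (25.9%), with 1922 and 2930 of all tested genes. Without samples 4 to 6 the counts were 21 (18.75%) and 13 (11.6%), with 1173 and 1629 of all tested genes. DEGs among the 112 genes over all samples were Fkbp5 and Hspa1l, which were higher, and Fkbp4 and Aarsd1, which were lower.

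HSP90 co-chaperones moved in both directions, with 6 of 25 higher and 6 lower. Fkbp5, a co-chaperone of steroid receptors that glucocorticoids induce, was at 23.3 ± 10.7 against 11.5 ± 3.96 FPKM (SD, n = 12), a log2 fold change of 0.93 ± 0.20 (SE; limma adjusted p = 0.00121). Its close relative Fkbp4 was at 136 ± 28.4 against 240.0 ± 28.7 FPKM (SD, n = 12), a log2 fold change of -0.84 ± 0.10 (SE; limma adjusted p = 3.03e-06). Both differences had the same sign in all 4 sets before the adjustment. Aarsd1, chosen for mention after its value was seen, had a log2 fold change of -0.50 ± 0.06 (SE; limma adjusted p = 3.88e-06). Hsp90ab1, the constitutive partner of Hsp90aa1, was at 889 ± 62.1 against 855 ± 47.2 FPKM (SD, n = 12) and did not pass (log2 fold change 0.05 ± 0.04, SE; limma adjusted p = 0.348).

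Of HSP70 and HSP110 relatives, 3 of 8 were higher and 1 lower. Hspa1l, a relative of Hspa1a best known from the testis, was at 7.10 ± 1.56 against 3.58 ± 1.47 FPKM (SD, n = 12), with a log2 fold change of 0.87 ± 0.15 (SE; limma adjusted p = 0.000127). Hspa12a, a distant relative, was lower by a log2 fold change of -0.19 ± 0.05 (SE). Hspa8, the constitutive HSP70, was at 1046 ± 113 against 983 ± 123 FPKM (SD, n = 12) and did not pass (log2 fold change 0.09 ± 0.07, SE; limma adjusted p = 0.324). The nucleotide exchange and docking list held 2 of 8 higher and 2 lower; Bag5 had a log2 fold change of 0.15 ± 0.05 (SE) and Stub1, the ubiquitin ligase CHIP that takes HSP70 clients to degradation, one of -0.18 ± 0.05 (SE; limma adjusted p = 0.00779). Under median-ratio scaling and quantile normalization 0 of that list were higher.

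Of J-domain proteins, 6 of 21 were higher and 1 lower, with Dnajb4, a relative of Dnajb1, at 53.3 ± 10.5 against 40.4 ± 5.50 FPKM (SD, n = 12; log2 fold change 0.38 ± 0.09, SE) and Dnajc12 lower (log2 fold change -0.19 ± 0.06, SE). Among the small heat shock proteins outside the 10 genes, Hspb9 passed at very low levels (0.235 ± 0.111 against 0.128 ± 0.078 FPKM, SD, n = 12). Hspb8, the partner of Bag3, was at 359 ± 59.6 against 408 ± 63.8 FPKM (SD, n = 12; log2 fold change -0.19 ± 0.09, SE; limma adjusted p = 0.106). Hspb2, which shares its locus with Cryab, had a log2 fold change of -0.19 ± 0.08 (SE; limma adjusted p = 0.0755). In that list 1 of 5 was higher and 0 lower, but 0 were higher and 2 lower under median-ratio scaling and after quantile normalization.

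Heat shock transcription factors and their regulators gave 1 higher and 2 lower of 6. Hsf1, the main factor of the heat shock response, was at 25.1 ± 2.88 against 28.2 ± 2.58 FPKM (SD, n = 12), a log2 fold change of -0.16 ± 0.06 (SE; limma adjusted p = 0.0353), but the exact test before the adjustment gave an adjusted p of 0.0843. Hsf2 was higher (log2 fold change 0.19 ± 0.06, SE), but did not pass after quantile normalization (0.10, limma adjusted p = 0.137) or without samples 4 to 6 (0.13, limma adjusted p = 0.168). Hsbp1l1, a relative of an HSF1-binding protein, was lower (-0.49 ± 0.12, SE). Of the partners of Bag3 in chaperone-assisted autophagy, 5 of 11 were higher and 1, Stub1, lower; Lamp2, a protein of the lysosomal membrane, had the largest increase (log2 fold change 0.46 ± 0.09, SE; limma adjusted p = 0.000289).

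The chaperonin TRiC/CCT, which folds actin and tubulin, held 6 of 11 genes higher and 1 lower, but 0 higher and 1 lower under median-ratio scaling. Cct4 had the largest increase (0.14 ± 0.03, SE) and Cct7 the decrease (-0.12 ± 0.05, SE), both small log2 fold changes. Prefoldin, which hands clients to TRiC, gave 2 of 7 higher and 1 lower, but 1 higher and 3 lower under both other scalings, with Pfdn1 at a log2 fold change of 0.18 ± 0.05 (SE) and Pfdn6 at -0.38 ± 0.06 (SE). Mitochondrial chaperones and proteases, listed for contrast with the cytosol, gave 0 higher and 8 lower of 13 with a median log2 fold change of -0.19. Clpp, the mitochondrial protease subunit, had the largest decrease of that list, at 42.5 ± 5.69 against 57.1 ± 6.86 FPKM (SD, n = 12; log2 fold change -0.42 ± 0.07, SE; limma adjusted p = 8.61e-05). The count of 8 lower was the same under both other scalings and was 6 without samples 4 to 6. Of the named related genes, Bag5, Cct4, Hspb9 and Pfdn1 no longer passed under median-ratio scaling, Bag5, Hsf2 and Hspb9 after quantile normalization, and Bag5, Cct7, Hsf1, Hsf2, Hspb9 and Stub1 without samples 4 to 6. Hspb2 passed, as lower, under both other scalings, and Hsp90ab1 (0.19) and Hspa8 (0.27) passed, as higher, after quantile normalization.

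**Figure D4:**
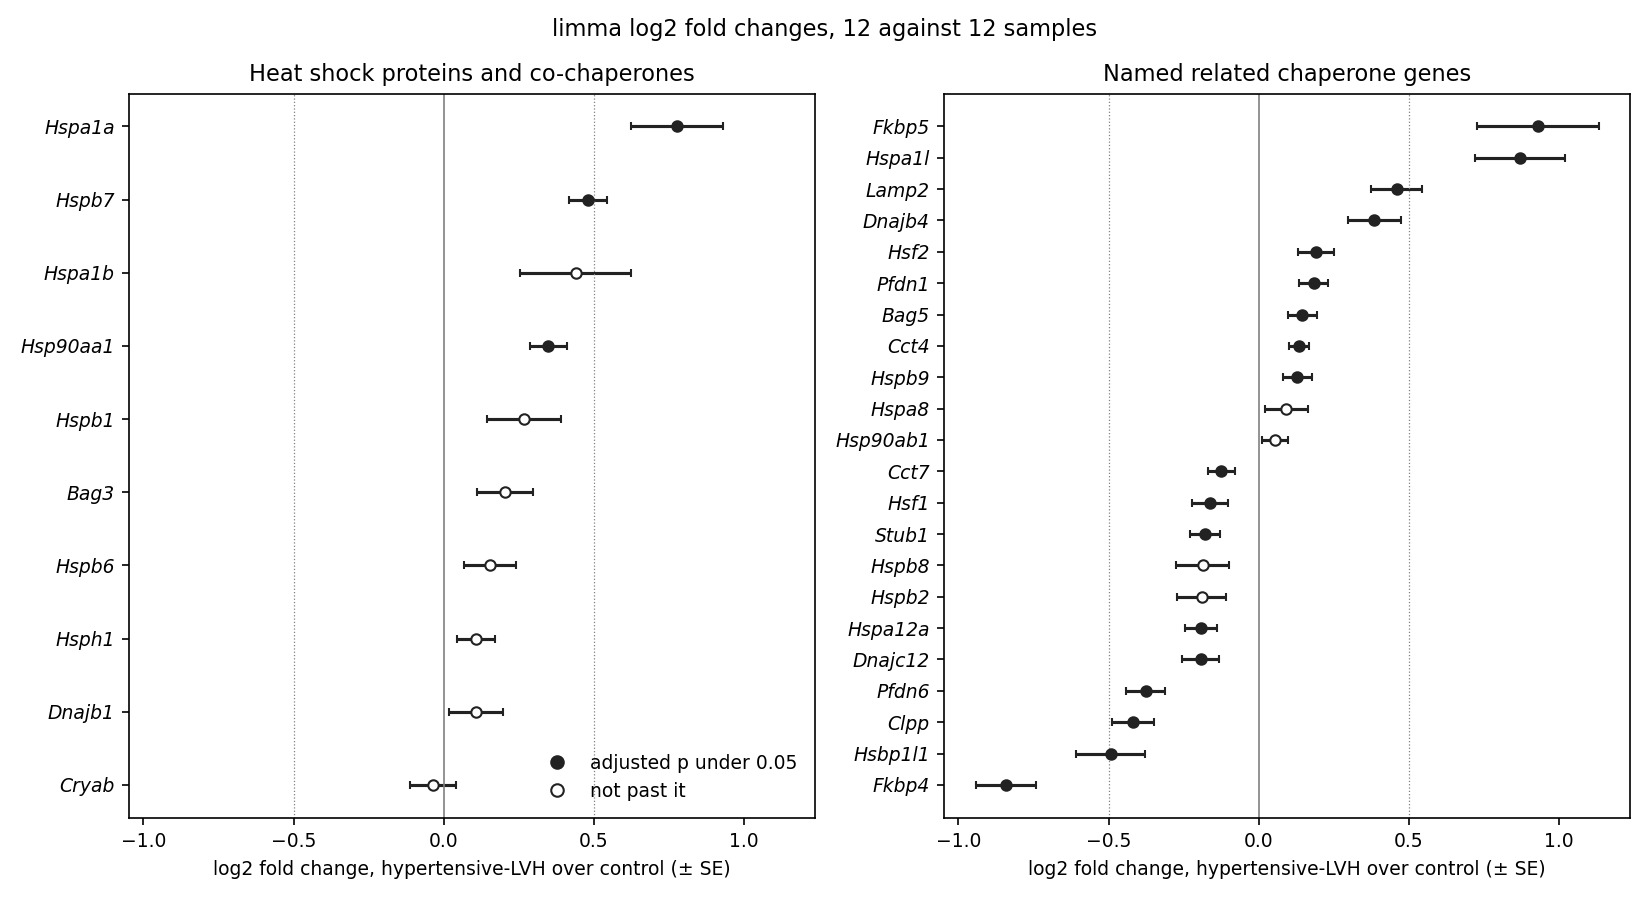
log2 fold changes with their SE from limma (horizontal axis, hypertensive-LVH over control, 12 against 12 samples) for the 10 heat shock proteins and co-chaperones (left) and the named related chaperone genes (right); filled points had an adjusted p under 0.05 and dotted lines mark the DEG threshold of 0.5. Hspa1a alone of the 10 lies beyond the dotted line, and on the right Fkbp5 and Hspa1l lie above it and Fkbp4 below it.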

How the data were processed

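Poly(A) RNA from the left ventricle was made into libraries and read in pairs by the authors. The submitters' processing notes name Bowtie2, HISAT and RSEM, with no versions; the genome build and annotation were not given in the sources used here. The authors deposited 1 table of values named FPKM, a length- and depth-normalized level. Of its values 0.766% (2741) are negative, none in the 10 genes, and only 278 genes hold whole hundredths throughout. Other genes were tied 215 to 541 times within a set of 3 samples and 0 times between sets, so the deposited FPKM were shifted and scaled by set (at least 100 ties joined samples). No source used here describes that step. The 10 genes and all lists were chosen with earlier results of these data known.

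Here, values below 0 were raised to 0, and log2(FPKM + 1) was fitted in limma 3.58.1 (R 4.3.3) with an intensity trend, over the 14026 genes with a mean of at least 0.1 FPKM, 12 against 12 samples and no covariates, with an adjusted p under 0.05; DEGs also had an absolute log2 fold change over 0.5. For 11630 genes (78.0%), all 10 included, the scale of each set and the difference the adjustment had set aside were recovered from the 0.01 FPKM steps, and exact tests used 160000 relabelings within sets (smallest p 1.25e-05). Permutation tests over all samples used 100000 resamples. Nothing in the sources says which samples came from separate cages or days, so p-values measure the spread between these samples. Whether replicate numbers pair the samples could not be decided, because the deposited values had been shifted by set. Positions are from GENCODE vM21 and promoters from RefSeq (GRCm38.p6). All 10 genes are named; of each of the 10 chaperone lists, the gene with the largest increase and the largest decrease past the test, and Hsf1, Hsp90ab1, Hspa8, Hspb2, Hspb8 and Stub1 always; for likeness, the 2 nearest genes (not reported here for Hspa1a). The fits were tested on simulated data. Alternatives covered the pseudocount, filters, scaling, trend, a rank test, blocks, and leaving out samples or sets.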

Additional observations from a re-analysis of the deposited data

Results flagged for a closer look

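The group difference of Bag3 depended on the set of samples, by a test of the difference itself: the limma interaction of group and set had an adjusted p of 0.0337. It was 1 of the 10 genes under 0.05, near the 7.49% of all tested genes, so the count says nothing particular about the 10 genes. The deposited log2 difference was 0.63, -0.28, 0.10 and 0.37 in the sets of samples 1 to 3, 4 to 6, 7 to 9 and 10 to 12, with 3 samples of each group in a set. Before the adjustment by set the differences were 122, -52.7, 17.2 and 49.8 FPKM. Fibroblast, cardiomyocyte and atrial markers also stood apart in samples 4 to 6, with median deposited log2 differences of 1.63, -0.40 and 3.97. These marker differences are from values with those below 0 raised to 0, and none is given before the adjustment. The part of the adjustment in these, and their part in the Bag3 values, was not tested. Without samples 4 to 6 the limma interaction had an adjusted p of 0.761 (unadjusted p = 0.0376). In that fit 3 of all tested genes had an adjusted p under 0.05.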

How the results depend on the processing

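Hspb7, Hsp90aa1 and Hspa1a stayed upregulated and past the threshold in all 24 fits that left out 1 sample (log2 fold changes 0.46 to 0.51, 0.32 to 0.38 and 0.72 to 0.84) and under each other alternative run, where their highest adjusted p was 0.00163, 0.0107 and 0.0112. Results that crossed the threshold or turned were as follows, and the cause was not tested. Without samples 4 to 6 the limma interaction of Bag3 had an adjusted p of 0.761 (unadjusted p = 0.0376). In the same setting the log2 fold change was 0.41 for Hspb1 (limma adjusted p = 0.0230), 0.37 for Bag3 and 0.0292 for Cryab, which turned positive. Without samples 10 to 12 it was 0.66 for Hspa1b (limma adjusted p = 0.00967) and 0.26 for Dnajb1. After quantile normalization it was 0.32 for Hspb1, 0.30 for Hspb6 and 0.0012 for Cryab, which turned positive. The sum of Hspa1a and Hspa1b passed at 0.72, where Hspa1b alone did not, and before the adjustment by set Hsph1 turned to -0.203 FPKM. Of the 10 genes, 5 passed after quantile normalization and without samples 4 to 6 or 10 to 12, and 2 were DEGs in the same 3 settings; leaving out 1 sample gave 3 to 5 passing and 1 to 2 DEGs. In those fits Hspa1b ran from 0.37 to 0.57, Hspb1 from 0.22 to 0.33 and Bag3 from 0.17 to 0.25. Related chaperone genes that rose numbered 18 under median-ratio scaling and 18 with a replicate block, 21 without samples 4 to 6 and 20 without samples 10 to 12, against 32, and 28 to 34 on leaving out 1 sample. Those that fell numbered 13 without samples 4 to 6, against 22, and 19 to 26 on leaving out 1 sample.

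Over all tested genes 4697 passed, 2928 higher and 1769 lower; the split was 2410 and 2230 under median-ratio scaling and 1922 and 2930 after quantile normalization. The total was 2824 with the replicate block (1586 higher and 1238 lower) and 2802 without samples 4 to 6 (1173 higher and 1629 lower). DEGs were 831, against 1489 with a pseudocount of 0.1 and 552 without samples 4 to 6. Same-numbered samples of the 2 groups did not deviate together in the deposited values (12 pairs, r from -0.557 to -0.00109, 0 closest to their own number). Those values had been shifted by set across both groups, which could remove a shared deviation, so pairing by number could not be decided. The replicate block changed no call of the 10 genes. Depth is unknown, so the limit it sets could not be measured.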
